A study of Mus musculus with 3 samples.

Results

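In the reporter-negative library of a mouse with a Runx1-Runx1t1 knock-in, 54 cells carried a large amount of Cpa3 RNA and no RNA of the basophil proteases Prss34 and Mcpt8. They were chosen by measured values: in cells with at least 1000 genes, at least 2000 UMIs (unique molecular identifiers, each standing for 1 captured RNA molecule) and under 10% mitochondrial UMIs, they had Cpa3 at 0.4% or more of the cell's UMIs and 0 UMIs of Prss34 and of Mcpt8. They were 54 of 8056 such cells in that library and of 27541 in the series. The series holds 3 droplet libraries of bone marrow cells from C57BL/6 mice, sorted as negative for the dye DAPI and for lineage markers and positive for c-kit. The control mouse was wild type. The non_mCherry and mCherry libraries are the reporter-negative and reporter-positive sort fractions of 1 other mouse, with the inducible recombinase Mx1-Cre and a heterozygous conditional Runx1-Runx1t1 knock-in, in which the reporter mCherry lies downstream of the fusion and both appear after poly(I:C). Mx1-Cre is driven by an interferon-responsive promoter, and per the series' design text cells that did not respond to poly(I:C) make neither the fusion protein nor mCherry. Whether poly(I:C) was also given to the control mouse is not in the labels. With 1 library per group, no difference below has a replicate check or a test, and each 95% interval covers counting error only.

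The fusion of Runx1 with Runx1t1, known as AML1-ETO, arises from a chromosome translocation in acute myeloid leukemia and joins the DNA-binding domain of RUNX1 to a protein that recruits corepressors. Cpa3 encodes carboxypeptidase A3, a granule protease of mast cells and their progenitors that basophils and some early progenitors also express. Ly6a encodes the surface antigen Sca-1 of mouse stem and multipotent progenitor cells, which interferon raises. Basophils are set apart from mast cells in the mouse by Prss34 and Mcpt8.

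Cells that met the same Cpa3, Prss34 and Mcpt8 conditions were rare in control and made up most of the mCherry library. There were 5 among 9066 control cells (0.0552%; 95% Clopper-Pearson interval 0.0179 to 0.129), 54 among 8056 non_mCherry cells (0.670%; 0.504 to 0.874) and 7027 among 10419 mCherry cells (67.4%; 66.5 to 68.3). Of all cells with Cpa3 at or above the threshold, 43 were in control, 108 in non_mCherry and 8517 in mCherry. Among the 108, 28 had Prss34 and 26 others had Mcpt8 only, which left the 54. The 7027 mCherry cells are called matched mCherry cells below, and the 8002 remaining cells of the reporter-negative library other non_mCherry cells.

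The 54 cells held 300206 UMIs in all. A cell had 2216 to 15421 UMIs with a median of 5140, against medians of 9420.5 in other non_mCherry cells and 8102 in matched mCherry cells. At this depth 1 UMI in the summed cells is worth 3.33 CPM (UMIs of a gene scaled to a total of 1000000), and 20 CPM, the floor used for counts of genes, is about 6 UMIs. The median mitochondrial share was 1.64%, against 1.88% and 2.47% in the same order. Of the cell barcodes in the files, 34 occurred in both the non_mCherry and the mCherry library, 24 in both control and non_mCherry and 42 in both control and mCherry, and none of these belonged to the 54 cells. A Scrublet doublet score above 0.25 was given to 1 of the 54.

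Cpa3, the gene that chose the cells, took 0.406% to 4.32% of a cell's UMIs with a median of 1.14%, and the median in matched mCherry cells was 0.991%. In summed counts it stood at 12565 CPM in the 54 cells, 11427 CPM in matched mCherry cells, 140 CPM in other non_mCherry cells and 95.3 CPM in control. Just inside the threshold, 4 cells had 0.4% to 0.5% Cpa3, and all 4 had Ly6a and 3 had Hlf. Just outside it, 14 cells without Prss34 and Mcpt8 had 0.3% to 0.4%, of which 5 had Ly6a and 6 had Hlf. The other markers given for the cells were present: Ly6a had a UMI in 45 of the 54 cells and Runx1 in 47. The remaining basophil genes were not all absent. Fcer1a, the IgE-binding subunit of the IgE receptor, had a UMI in 2 cells, and Ms4a2, its beta subunit, in 4. Neither was seen in a larger share of cells than in other non_mCherry or matched mCherry cells. With each cell thinned to the same depth, Fcer1a was in 1.85% of the 54 cells (0.0469 to 9.89). The shares were 4.22% in other non_mCherry and 4.37% in matched mCherry cells. For Ms4a2 they were 3.70% (0.452 to 12.7), 5.36% and 9.49% in the same order of groups. Cd200r3, an activating receptor of basophils and mast cells, had a UMI in 12 cells. It was at 60.0 CPM against 3.004 CPM in other non_mCherry cells and 21.8 CPM in matched mCherry cells. Of its 18 UMIs, 5 came from 1 cell, without which it was at 45.6 CPM. Its log2 ratio over matched mCherry cells then went from 1.28 to 0.92, under 2-fold.

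In genes that the rule did not use, the 54 cells stood with the mCherry library and apart from the library they came from. The 2 lists used here were taken from mCherry over control alone, with no non_mCherry cell: 64 genes at least 8-fold higher in mCherry and 24 at least 8-fold higher in control, each ratio taken after adding 5 CPM. UMIs on the mCherry-high genes made up 0.428% to 5.09% of each of the 54 cells with a median of 2.19%. The median was 2.18% in mCherry cells, 0.170% in other non_mCherry cells and 0.139% in control. The 5th percentile of mCherry cells, 0.968%, was reached by 51 of the 54 cells (94.4%), by 215 of 8002 other non_mCherry cells (2.69%) and by 121 of 9066 control cells (1.33%). Of the 5 control cells of the same rule, 4 reached it. The lists are not independent of the choice of cells, since 67.4% of mCherry cells and 0.0552% of control cells met the same rule. How much of the share goes with the choice by Cpa3 was not tested. Control-high genes had medians of 0.0335% in the 54 cells, 0.0103% in mCherry cells, 0.315% in other non_mCherry cells and 0.579% in control. On this list the 54 cells were below other non_mCherry cells and control but above mCherry cells. Matched mCherry cells had a median of 0.00838%.

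**Figure D1:**
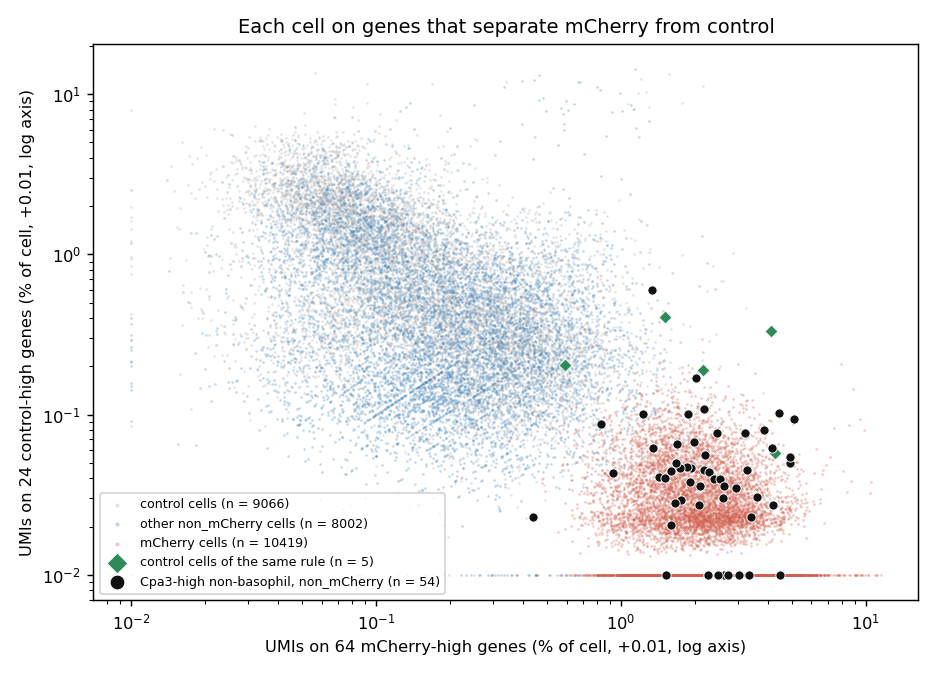
Each point is 1 cell, with the percent of its UMIs on the 64 mCherry-high genes (x axis) and on the 24 control-high genes (y axis), both with 0.01 added on log axes. Most of the 54 cells (black) lie within the mCherry cells (red), at a median of 2.19% on the x axis, and the other non_mCherry cells (blue) overlap control (grey) at medians of 0.170% and 0.139%.

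Gene by gene, 62 of the 63 mCherry-high genes with at least 20 CPM in the 54 cells or in other non_mCherry cells were at least 2-fold higher in the 54 cells, with a median log2 ratio of 3.36. Ratios throughout are log2 of summed CPM with 5 CPM added to both sides. The exception was the GTPase gene Gimap4, at 26.6 against 13.99 CPM, and Cyyr1, with 3 UMIs in the 54 cells, was under the floor. All 24 control-high genes were at least 2-fold lower (median -3.45), 6 of them with no UMI in the 54 cells. Over all 6293 genes above the floor, 854 (13.6%) passed 2-fold upward and 736 (11.7%) downward, with a median log2 ratio of -0.02. Against matched mCherry cells, 109 of 6257 genes (1.74%) passed 2-fold upward and 204 (3.26%) downward. Against all mCherry cells the counts were 92 (1.46%) and 204 (3.24%) of 6294. None of these counts includes Cpa3, Prss34 or Mcpt8.

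Both genes joined in the knock-in were at the level of the mCherry library. Runx1, a transcription factor of blood stem cells and the DNA-binding portion of the fusion, stood at 436 CPM in the 54 cells (95% Poisson interval 365 to 518), 400 CPM in matched mCherry cells, 147 CPM in other non_mCherry cells and 148 CPM in control. It took up to 0.174% of a cell's UMIs, with a median of 0.0309%, and 7 of the 54 cells had none. This level of Runx1 was not particular to cells of the knock-in mouse. The 5 wild-type control cells of the same rule had 519 CPM (268 to 907), from 12 UMIs. Reporter-negative Cpa3-high cells with Prss34 had 463 CPM of Runx1, and those with Mcpt8 only had 353 CPM. Runx1t1, the corepressor-recruiting ETO gene that normal blood progenitors barely express, gave 4 UMIs in 4 of the 54 cells, or 13.3 CPM (3.63 to 34.1). Its level was 8.75 CPM in matched mCherry cells, 0.29 CPM in other non_mCherry cells and 0.22 CPM in control. A Runx1t1 UMI was thus seen in 7.41% of the 54 cells and in 7.40% of matched mCherry cells. After thinning each cell to 2000 UMIs, so that depth is the same, the shares were 1.85% (0.0469 to 9.89) and 1.86%, against 0.0625% in other non_mCherry cells. In the mm10 annotation Runx1 lies on chromosome 16 from 92601466 to 92826149 (minus strand) and Runx1t1 on chromosome 4 from 13743436 to 13893649 (plus strand). The gene list names neither the knock-in nor mCherry, so the reporter's RNA was not measured in these cells. Of the 5 genes of the RUNX, CBFb and ETO families above the floor, Runx1 and Runx2 (70.0 against 26.5 CPM) were at least 2-fold higher than in other non_mCherry cells and none lower.

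The genes furthest up over other non_mCherry cells combined a chemokine, a stem cell antigen and factor, and myeloid receptors. Ccl2, a chemokine that draws monocytes, reached 456 CPM (383 to 539) against 1.49 CPM, a ratio of 307 (240 to 393). It had a UMI in 18 of the 54 cells, with up to 0.474% of a cell's UMIs and a median of 0, so the sum rests on a minority of cells. Ly6a reached 623 CPM against 17.7 CPM, a ratio of 35.1 (30.0 to 40.9), with a median of 0.0478% and a maximum of 0.298% of a cell's UMIs. Hlf, a transcription factor of long-term stem cells, reached 243 CPM against 10.1 CPM, a ratio of 24.2 (18.8 to 30.7), with a median of 0.0167% and a maximum of 0.150%. Ly6a and Hlf were thus spread over many cells, and matched mCherry cells had 677 CPM and 282 CPM of them.

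The transcriptional inhibitor Id1 stood at 416 CPM against 12.9 CPM in other non_mCherry cells. Ctla2a and Ctla2b, which encode cysteine protease inhibitors, were at 4254 against 203 CPM and 276 against 11.0 CPM. The myeloid receptor genes Clec4e, a C-type lectin that senses mycobacterial glycolipid, and Lilr4b were at 336 against 12.8 CPM and 123 against 1.46 CPM. Phlda1 was at 550 against 28.4 CPM and the cytochrome P450 gene Cyp4b1 at 80.0 against 0.23 CPM. Cma1, the mast cell chymase, was at 320 against 6.99 CPM, but 59 of its 96 UMIs came from 1 cell and 7 cells had any.

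The sequence just upstream of the start was read for these leading genes and Cpa3, since they were high together. RefSeq promoters (GRCm38.p6) were matched for 8 of the 13 genes. The core RUNX motif TGTGGT, searched on both strands, was in the 250 bases of 2 of the 8, and in 14.05% of 32851 mouse promoters of that length. The sequences that hold it are printed 5′ to 3′ on the gene's strand, with the motif or its reverse complement in capitals. The match begins 73 bases before the start in Cpa3 (chr3:20242182-20242431, minus strand) and 114 bases before it in Clec4e (chr6:123289872-123290121, minus strand).
Cpa3: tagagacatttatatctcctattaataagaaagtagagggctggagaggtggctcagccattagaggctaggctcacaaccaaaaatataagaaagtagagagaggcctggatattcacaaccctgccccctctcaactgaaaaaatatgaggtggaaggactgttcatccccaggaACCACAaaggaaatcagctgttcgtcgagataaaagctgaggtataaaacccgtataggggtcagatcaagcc
Clec4e: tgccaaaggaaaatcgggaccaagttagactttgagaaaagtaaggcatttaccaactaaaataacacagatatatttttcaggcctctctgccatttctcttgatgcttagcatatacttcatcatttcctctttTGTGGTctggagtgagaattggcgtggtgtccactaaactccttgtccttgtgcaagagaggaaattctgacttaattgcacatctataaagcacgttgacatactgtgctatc
The GATA motif AGATAA was in 2 of the 8 promoters (9.99% of all) and the E-box CANNTG in 7 (66.2% of all). Such matches describe letters and not bound sites.

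**Figure D2:**
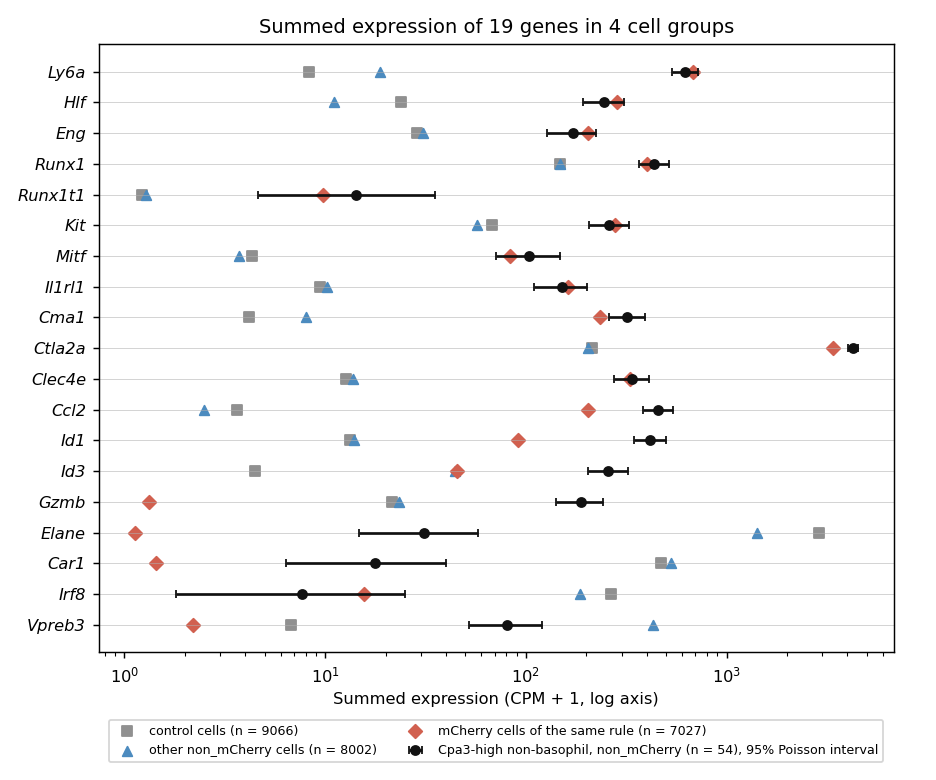
Summed expression of 19 genes (CPM with 1 added, log axis) in the 54 cells (black, with the 95% Poisson interval), matched mCherry cells (red), other non_mCherry cells (blue) and control (grey). Ly6a, Hlf, Runx1, Kit and Clec4e coincide with the mCherry level within the interval, and Id1, Id3 and Ccl2 lie above it.

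Most stem cell genes were higher than in other non_mCherry cells. Of 13 measured genes of the stem and multipotent progenitor list, 10 were at least 2-fold higher and 2 lower, with a median log2 ratio of 2.33. Procr, the receptor of protein C on stem cells, was at 36.6 against 1.66 CPM and Eng, the TGF-beta coreceptor endoglin, at 170 against 29.9 CPM. The exceptions were Hoxa9, a homeobox factor of progenitors, with no UMI against 31.0 CPM, and Mllt3, a stem cell maintenance factor, with 3 UMIs. Mecom, which encodes the stem cell factor EVI1, was also at 0 UMIs. Against matched mCherry cells, 0 of 12 genes of the list were higher, 1 was lower and the median was -0.23. Cd34, a surface marker of progenitors, was at 230 CPM against 411 CPM there and 112 CPM in other non_mCherry cells.

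Shares of cells with a UMI were taken after thinning to 2000 UMIs, and for the next 3 genes the share in matched mCherry cells lies within the interval of the 54 cells. Ly6a was seen in 66.7% of the 54 cells (52.5 to 78.9), 60.6% of matched mCherry cells and 3.39% of other non_mCherry cells. Hlf was seen in 35.2% (22.7 to 49.4), 39.8% and 2.36%. Kit, the stem cell factor receptor on which the sort rested, was seen in 44.4% (30.9 to 58.6), 41.1% and 11.2%. In B lineage cells of the non_mCherry library, the shares were 2.23% for Ly6a, 0.621% for Hlf and 7.195% for Kit. These cells passed the same c-kit gate, so their Kit share is no measure of background. Without thinning, Ly6a was in 83.3% and Hlf in 59.3% of the 54 cells, whose median depth was 5140 UMIs against 6507.5 in the B lineage cells.

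Among mast cell genes, transcription factors, Kit and the chymase were detected. Other granule proteases had no UMI but were under the floor in the compared groups too. Of the 12 listed, Cma1, Kit and Mitf were at least 2-fold higher than in other non_mCherry cells, and Gata2, a factor of mast cell and stem cell fate, was at 180 against 87.6 CPM (log2 ratio 0.997). Mitf, a transcription factor of mast cells, was at 103 against 2.73 CPM and seen in 23 of the 54 cells. The granule proteases Mcpt1, Mcpt2 and Mcpt4, the tryptases Tpsab1, Tpsb2 and Tpsg1 and the receptor Mrgprb1, which mark mature mast cells, had no UMI. All were under 20 CPM in both compared groups, and a sum of 0 in the 54 cells has an upper limit of 12.3 CPM. These zeros thus do not set the 54 cells apart from matched mCherry or other non_mCherry cells. Slc18a2, a monoamine transporter of granules, was at 110 against 18.5 CPM, and Hdc, the histamine-forming enzyme, at 89.9 against 40.3 CPM with 7 cells positive. Of Hdc's 27 UMIs, 12 were in 1 cell, and its log2 ratio of 1.07 became 0.35 without that cell and -0.90 with the Cpa3 threshold at 0.8%. Of 14 measured genes of mast cell signalling and mediators, 10 were higher and 0 lower (median 1.25). Srgn, the core protein of granule proteoglycan, was at 4174 against 1532 CPM and Lat2, an adaptor of the IgE receptor pathway, at 143 against 39.5 CPM.

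Receptors for growth factors of these lineages were high as well. Of 8 measured cytokine receptors, 7 were higher than in other non_mCherry cells and 0 lower (median 1.98). Kit was at 260 CPM (205 to 324) against 55.9 CPM, and Il1rl1, the interleukin 33 receptor of mast cells, at 150 CPM (109 to 201) against 9.17 CPM. Csf2rb, the shared chain of the receptors for interleukin 3, interleukin 5 and GM-CSF, was at 123 against 39.9 CPM and Il3ra at 83.3 against 36.3 CPM. Against matched mCherry cells, the mast cell, signalling and receptor lists had medians of 0.11, 0.04 and 0.12, and the only gene past 2-fold was Fcer1g, the signalling chain of Fc receptors, at 160 against 49.7 CPM. Of its 48 UMIs, 19 came from 1 cell, without which its log2 ratio of 1.59 became 0.92.

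Genes of other lineages were mostly low or absent against other non_mCherry cells. Of granulocyte progenitor genes, 7 of 9 were at least 2-fold lower and 1 higher (median -1.91), the exception being the repressor gene Gfi1 at 73.3 against 12.7 CPM. Elane, neutrophil elastase, was at 30.0 against 1412 CPM (47.1-fold lower; 24.8 to 103) and Prtn3, proteinase 3, at 103 against 2494 CPM. Mpo, the myeloperoxidase of primary granules, was at 493 against 1582 CPM, with a UMI in 34 of the 54 cells. Its share of positive cells was not lower: after thinning, 46.3% of the 54 (32.6 to 60.4), 39.3% of other non_mCherry and 51.9% of matched mCherry cells. All 6 measured neutrophil genes were lower (median -3.89). Ngp and Lcn2, proteins of secondary granules, had no UMI and were at least 9.87-fold and 6.93-fold lower, and the calprotectin genes S100a8 and S100a9 had 3 and 5 UMIs. The acute phase gene Hp had 1 UMI, against 108 CPM in other non_mCherry cells. Of monocyte genes 7 of 8 were lower and 1 higher: Irf8, which directs monocyte and dendritic cell development, had 2 UMIs (6.66 against 186 CPM), and the exception Klf4 at 120 against 13.6 CPM. Prg2, a granule protein of eosinophils, and the 7 other eosinophil genes had no UMI.

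In the erythroid list 8 of 12 genes were lower and 1 higher (median -2.41). Car1, an early erythroid carbonic anhydrase, was at 16.7 against 526 CPM, and Klf1, the erythroid master factor, had no UMI. The exception was the beta globin gene Hbb-bt, at 623 against 65.8 CPM, with a UMI in 25 of the 54 cells and 36 of 187 UMIs in 1 of them. Its near neighbour Hbb-bs was at 23.3 against 67.0 CPM. Matched mCherry cells had 354 CPM of Hbb-bt and 3.05 CPM of Hbb-bs. The 2 genes are nearly alike, and how the authors' counting assigned reads between them was not tested. Of 6 megakaryocyte genes 2 were higher and 1 lower, with Plek at 103 against 24.02 CPM and Pf4 at 13.3 against 45.1 CPM. Of 9 B lineage genes 8 were lower (median -2.37), and the plasma cell gene Jchain was at 6.66 against 242 CPM. Of 4 dendritic cell genes 2 were lower and 0 higher. In the basophil list, Cd200r3 and Hdc were higher, Hdc only with the cell richest in it, and Ifitm1 and Csrp3 were lower, at 70.0 against 704 CPM and 3.33 against 55.5 CPM. Without the 3 cells that stood apart, 1 of the 6 basophil genes was higher and 4 were lower. Of the 12 genes furthest down, the remaining one was the nucleosome-binding gene Hmgn1, at 9.99 against 228 CPM in other non_mCherry cells and 13.2 CPM in matched mCherry cells.

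Immediate early genes, which respond within minutes to signals, were high and cycling genes low. Of 17 immediate early genes, 15 were at least 2-fold higher than in other non_mCherry cells and 0 lower (median 2.60). Jun was at 5186 against 916 CPM, Fos at 1949 against 226 CPM and Egr1 at 570 against 87.3 CPM. The trait was shared by the groups of the same rule. Over matched mCherry cells, 2 of 18 immediate early genes were higher and 1 lower (median -0.07). The list summed to 22747 CPM in matched mCherry cells and 30667 CPM in the 5 control cells of the same rule. It summed to 20739 CPM in the 54 cells, against 3564 CPM in other non_mCherry cells. Malat1, a nuclear long noncoding RNA, was at 18394 CPM against 5272 CPM, with 20699 CPM in matched mCherry cells. Its part in the immediate early result was not tested. S phase genes were lower in 25 of 29 (median -1.47), with Gmnn at 26.6 against 163 CPM, and G2 and M phase genes in 8 of 30 (median -0.66), or 19 of 30 (median -1.11) without the 3 cells that stood apart. A UMI of Mki67 or Top2a was present in 8 of the 54 thinned cells (14.8%; 6.62 to 27.1) and in 13.3% of matched mCherry cells.

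In the interferon response list, 14 of 30 genes passed 2-fold upward and 3 downward (median 0.97). Irf7, a factor that amplifies the response, was at 73.3 against 6.91 CPM, Isg15 at 46.6 against 4.90 CPM and Ifit1 at 40.0 against 2.12 CPM. Of Irf7's 22 UMIs 10 came from 1 cell, without which it was at 40.7 CPM. Of Isg15's 14 UMIs 7 came from 1 cell, and all 7 UMIs of Ifit3 came from 1 cell. Both groups came from the poly(I:C)-treated mouse.

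Fatty acid genes, to which the series title points, had no common direction. In fatty acid oxidation 2 of 19 genes were at least 2-fold higher than in other non_mCherry cells and 1 lower (median 0.14). Cpt1a, which carries fatty acids to mitochondrial oxidation, was at 49.97 against 21.5 CPM and Acaa2, a thiolase, at 33.3 against 94.5 CPM. In uptake, activation and storage 2 of 7 were higher and 1 lower (median -0.03). The fatty acid binding protein gene Fabp5 was at 783 against 279 CPM, with 66 of 235 UMIs in 1 cell, and the lipid droplet genes Plin3 and Plin2 were at 73.3 against 27.5 CPM and 6.66 against 49.6 CPM. In synthesis 1 of 13 was higher and 1 lower (median -0.09), with the elongase gene Elovl7 at 26.6 against 3.92 CPM. Nuclear genes of oxidative phosphorylation had 8 of 76 past 2-fold downward (12 without the 3 cells that stood apart) and 0 upward (median -0.60). Mitochondrially encoded genes had a median of -0.30 with 0 of 11 past 2-fold. Over all 6293 genes above the floor, 13.6% passed 2-fold upward and 11.7% downward, so the count of 8 of 76 lay near the downward share. The upward count of 0 of 76 lay under the upward share. The list's median of -0.60 was also below the lower quartile of all these genes, -0.57. Without the 3 cells, 937 of 6402 genes passed upward and 887 downward.

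**Figure D3:**
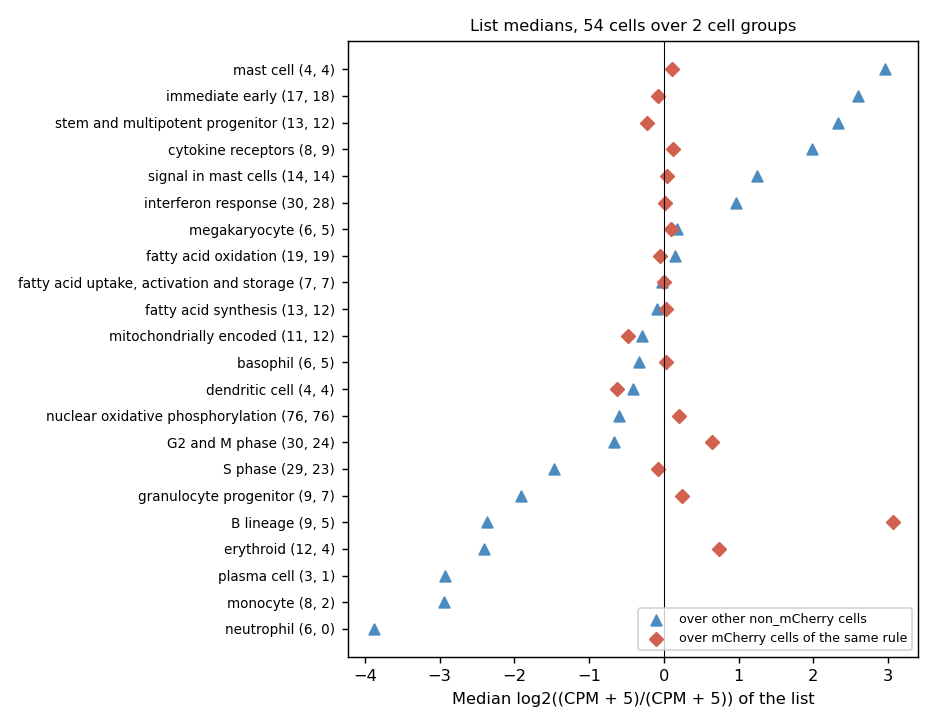
Median log2 ratio of each gene list in the 54 cells over other non_mCherry cells (blue) and over matched mCherry cells (red), with the number of genes above the floor in each comparison in brackets. Over other non_mCherry cells the medians run from 2.96 (mast cell) to -3.89 (neutrophil, a list with no gene above the floor in the other comparison), and over matched mCherry cells B lineage lies at 3.06 and the other lists from -0.62 (dendritic cell) to 0.73 (erythroid). Without the 3 cells that stood apart, the B lineage and erythroid medians over matched mCherry cells were 2.53 and -0.20, each from 3 genes.

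The differences from matched mCherry cells were fewer, and of the 10 genes furthest up many rested on 1 cell. Gzmb, granzyme B, was at 187 against 0.33 CPM, but 55 of its 56 UMIs came from 1 cell. All 12 UMIs of Xcl1, a lymphoid chemokine, came from 1 cell, as did all 12 of Bex4, 24 of 35 of the galectin gene Lgals1 and 14 of 16 of the actin-severing gene Scin. Vpreb3, Vpreb1, Igll1 and Ebf1, of the pre-B cell receptor and the B lineage programme, were at 79.9, 56.6, 36.6 and 40.0 CPM against 1.18, 1.04, 0 and 1.11 CPM. All 5 measured B lineage genes were above 2-fold. Much of this lay in few cells: the cell richest in each held 14 of 24 Vpreb3, 8 of 17 Vpreb1, 8 of 11 Igll1 and 8 of 12 Ebf1 UMIs. Without the 3 cells described below as standing apart, 42 of the 97 B lineage UMIs were left, 2 of 3 genes above the floor passed 2-fold, and Igll1 and Ebf1 had 3 and 4 UMIs. The list summed to 323 CPM in the 54 cells, 39.3 CPM in matched mCherry cells and 1815 CPM in other non_mCherry cells, with 27 of the 54 cells at 0 and Pax5 and Rag1 at 0 UMIs. Elane, the remaining gene, had 1 UMI in each of 9 cells. Its thinned share was 5.56%, against 15.7% in B lineage cells of the same library. The part of free RNA in these values was not tested.

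Outside those, Id genes and a stress factor were higher than in matched mCherry cells, with Id1 seen in 28 of the 54 cells and the others in 13 to 21. Id1, Id2 and Id3 encode inhibitors of basic helix-loop-helix factors; Id2, Id3 and the stress-responsive factor Atf3 were chosen after their values were seen. Id1 was at 416 CPM (347 to 496) against 90.2 CPM, 4.62-fold higher (3.84 to 5.51), with a UMI in 28 of the 54 cells and a log2 ratio of 1.97 without the cell richest in it. Id3 was at 256 against 44.4 CPM (21 cells; 2.18 without the richest cell), and Id2 at 203 against 62.5 CPM (13 cells; 1.31). Atf3 was at 470 against 77.1 CPM with 18 cells positive, and 37 of its 141 UMIs were in 1 cell (2.12 without it). Ccl2 was 2.24-fold higher than in matched mCherry cells (1.88 to 2.65), and its log2 ratio of 1.15 became 0.80 without the richest cell. Thinned shares gave Id1 in 40.7% of the 54 cells (27.6 to 55.0) against 12.7% of matched mCherry cells and 0.730% of B lineage cells.

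Among the gene lists, G2 and M phase genes were at least 2-fold higher than in matched mCherry cells in 6 of 24 (median 0.64) and lower in none. This count rested on few cells: without the 3 cells that stood apart it was 0 of 22 (median 0.30). Mki67, the proliferation marker, was at 153 against 66.9 CPM, from 9 of the 54 cells, with 15 of its 46 UMIs in 1 cell. Without the 3 cells it was at 104 CPM (log2 ratio 0.60). In S phase 1 of 23 was higher and 1 lower, or 0 and 1 of 22 without those cells. Mitochondrially encoded genes had a median of -0.48, with mt-Co1 at 3564 against 5237 CPM, beside the lower median mitochondrial share of 1.64% against 2.47%. Slc16a11, a monocarboxylate transporter family gene, was at 96.6 against 206 CPM. The 10 genes furthest down, Atp7a, H2-Ob, Asah1, Vkorc1l1, Cdc42bpa, Smim24, Ddx26b, N6amt1, Cnrip1 and Fam208b, had 0 or 1 UMI each in the 54 cells. Atp7a, a copper transporter, was at 33.8 CPM in matched mCherry cells and at least 3.38-fold lower in the 54 cells.

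The 54 cells were not uniform. By all UMIs, 29 had Hlf without Cma1, 4 had Cma1 without Hlf, 3 had both and 18 neither, and 50 had Hlf or Ly6a. After thinning, Hlf without Cma1 was in 35.2% and Cma1 without Hlf in 9.26%, against 37.2% and 5.96% of matched mCherry cells. Among 1398 genes with at least 100 CPM, the variance over cells divided by the mean, in thinned counts, had a median of 1.08. The most uneven genes were Gm42418 (30.5), Gzmb (22.0), Malat1 (12.6), the histone gene H3f3b (11.8), the chemokine Ccl4 (11.7), Fabp5 (11.1), Cma1 (10.9), the chemokine Cxcl2 (10.5), the lipid carrier gene Apoe (7.32) and Ccl2 (7.04).

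**Figure D4:**
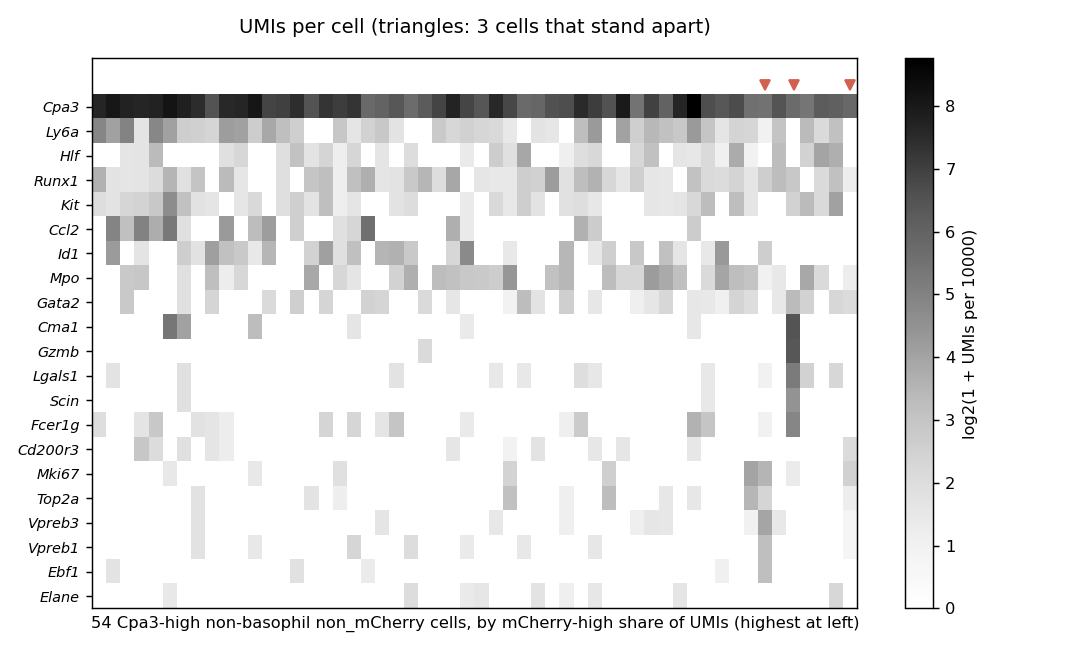
UMIs per 10000 of 21 genes (rows, log2 after adding 1) in each of the 54 cells (columns), ordered from the highest mCherry-high share at left. Ly6a and Runx1 are spread across the columns, whereas Gzmb is nearly all in 1 of the 3 cells marked with a triangle.

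At the lower end of the mCherry-high share, 3 cells stood apart, and they were singled out after their values were seen. The deepest cell, with 15421 UMIs, had the lowest share (0.428%), no Ly6a, Hlf or Kit, 5 UMIs of Cd200r3 and a Scrublet score of 0.215. Another, with 9732 UMIs, had 53 UMIs of B lineage genes beside 1 of Ly6a and 5 of Runx1, and it was the cell with a score above 0.25 (0.365). The remaining cell, with 6646 UMIs, had 55 of Gzmb, 59 of Cma1, 24 of Lgals1, 14 of Scin and 19 of Fcer1g, and no Ly6a or Hlf. Without these 3 cells, the median mCherry-high share of the other 51 was 2.25%. Of 6402 genes, 937 then passed 2-fold upward and 887 downward against other non_mCherry cells. Against all mCherry cells, 82 and 251 of 6359 did.

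The 5 control cells found by the same rule carried Cma1 and Gzmb and lacked Hlf. Cma1 was present in 4 of them with 32, 49, 46 and 2 UMIs and Gzmb in 4 with 50, 33, 52 and 3 UMIs. All 5 had Kit and Gata2, 0 had Hlf, and 1 had Ly6a, with 5 UMIs. Their mCherry-high share was 0.580% to 4.24% with a median of 2.15%, and Cma1 alone gave 18.8% of those UMIs, against 1.40% in the 54 cells. Without Cma1 the median was 1.45% in the control cells and 2.18% in the 54.

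The Cpa3-high cells that the protease conditions left out of the 54 fell to either side. The 28 with Prss34 had a median mCherry-high share of 0.258%, and 2 of them reached the 5th percentile of mCherry cells. The 26 with Mcpt8 but no Prss34 had a median of 3.01%, and 23 of them reached it. Zero Mcpt8 therefore left out cells of the reporter-negative library with as high a share as the 54.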

How the data were processed

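The authors deposited, for each of 3 libraries, a sparse matrix of UMI counts, checked to hold whole numbers. The submitters' processing notes name Cell Ranger 6.1.2 and mm10. A different software version, 3.1.0, stands in the file headers, and which of them produced the values was not settled. Sequencing was 150 bp paired-end, per the labels' protocols. The libraries held 9782 (control), 9751 (non_mCherry) and 11323 (mCherry) barcodes with 150702749, 92776556 and 97404871 UMIs.

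Groups came from the group label, 1 library each. Counts were summed over cells, scaled to CPM and compared as log2((CPM + 5)/(CPM + 5)), with a floor of 20 CPM in 1 group and calls at 2-fold. Nothing was tested for significance. Intervals at 95% are exact Poisson for sums and Clopper-Pearson for shares, and a sum of 0 has a floor of 3 counts over the group. The cells and lists were chosen with earlier results of these data known. Named genes are the 12 furthest up and 12 furthest down over other non_mCherry cells, the 10 over matched mCherry cells, up to 4 per list, preset markers and the 10 most variable. Of these, 3 genes are not reported here. Doublets were scored with Scrublet in scanpy 1.11.5 and not removed; the automatic threshold called only 4 mCherry cells, so 0.25 was used for all (209 control, 206 non_mCherry, 269 mCherry cells above it). B lineage cells for background had at least 3 B lineage genes. The calculations, run in Python 3.11.15 (numpy 2.4.6, scipy 1.17.1), were tested on simulated data. Gene locations are from GENCODE for mm10 (27645 of 27998 identifiers matched). Alternatives covered the Cpa3 threshold, protease conditions, cell filters, scaling, pseudocount, floor, doublets, shared barcodes and list fold.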

Additional observations from a re-analysis of the deposited data

How the results depend on the processing

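No paired analysis was possible because each group is 1 library. Of the values given for the named genes over other non_mCherry cells, 1532 of 1573 calls kept their direction and their side of 2-fold under the alternatives, and over all mCherry cells 600 of 644. The 54 cells became 85 with Cpa3 at 0.2% and 87 over every deposited barcode. The 5 control cells became 15 at 0.2%, 2 at 0.8%, 8 with up to 1 UMI of Prss34 and Mcpt8 and 9 when cells were thinned before the rule, and the 7027 mCherry cells 4401 at 0.8%. Over other non_mCherry cells a floor of 50 CPM gave 519 higher and 427 lower of 3466 genes, and no floor 1258 lower of 17490. Over all mCherry cells, lower genes numbered 333 of 6294 with a pseudocount of 1 CPM, 113 of 6294 with 10 CPM and 383 of 6317 with Cpa3 at 0.8%. A floor of 50 CPM gave 43 higher and 52 lower of 3263, and no floor 211 and 702 of 17163. Leaving out cells with Cd200r3 gave 139 higher of 6454. The median mCherry-high share was 7.95% with 4-fold lists (270 genes) and 0.236% with 16-fold lists (12 genes), and the control-high one 0.281% with 4-fold lists. Unthinned shares of cells were 83.3% for Ly6a, 59.3% for Hlf and 87.0% for Runx1. Over other non_mCherry cells, log2 ratios turned negative at Cpa3 0.8% for Hdc (-0.90), Gzmb (-2.48) and Scin (-0.064), without the 3 cells apart (an alternative chosen after seeing the data) for Gzmb (-1.65) and Scin (-0.29), and without cells with Cd200r3 for Cd200r3 itself (-0.71). Over all mCherry cells they turned for Bex4 (-0.68 at Cpa3 0.8%, without Cd200r3 cells and without the 3 cells apart), Gzmb (-0.13 at 0.8%) and Cd200r3 (-2.43 without its cells), and against matched mCherry cells S100a8 (0.84) and S100a9 (1.25) turned positive. Apart from those that remove the cells holding the gene's UMIs, the cause was not tested. At 300206 UMIs in all, genes under 20 CPM rest on fewer than about 6 UMIs.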

Other observations

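Outside the 54 cells and the other Cpa3-high cells, 190 cells of the non_mCherry library reached the 5th percentile of mCherry cells in the mCherry-high share while staying under the Cpa3 threshold, and 127 of them had no Cpa3 UMI. At or above the median of the 54 cells there were 20 other non_mCherry cells, of which 15 were Cpa3-high cells with Mcpt8 and 5 were under the threshold.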
